A study of Mus musculus with 18 samples.

Results

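Cd151 is a tetraspanin, a small cell-surface protein that spans the membrane repeatedly and holds integrins in place. It is described here with 3 further tetraspanins (Cd9, Cd81 and Cd82) and 5 integrin subunits (Itga3, Itga6, Itgav, Itgb1 and Itgb8), in cells given a mix of microRNA mimics. These 9 genes, of 53342 in the deposited table, were taken by gene symbol, and each symbol named a single row. They were proposed after the contrasts of the mix with the control mimic had been seen in all 3 cell types, where Cd151, Itga3 and Itgb8 had stood out for large falls under the mix. Their levels and fold changes in those contrasts are therefore a description, and no p-value is given for them there. Members are also said to pass or miss the threshold on the adjusted p that is defined below. Such calls, in any setting, are description too and are not read as tests, because the members were chosen on the same values.

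The study transfected a mix of 3 mimics in equal amounts (miR-99b-3p with miR-199a-3p, and also miR-140-5p) at 25 nM for 24 h with the reagent Dharmafect 1, and sequenced poly(A) RNA. Control cells were given a mimic of cel-miR-67, which is a microRNA of a nematode worm. Both arms were run in Neuro-2A (neuroblastoma cells, labelled neuron and not genetically modified), in primary astrocytes (labelled WT) and in BV-2 (a microglial line, not genetically modified), with 3 libraries per arm and 18 in all. The sources name no strain or age for the astrocytes. Sample descriptions carry numbers shared between the arms, but the sources do not say what they stand for or whether the replicates were separate cultures. P-values below therefore measure only how far these libraries spread, and that spread may be technical.

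Tetraspanins assemble with one another and with partner proteins into membrane microdomains. Cd151 binds the laminin receptors α3β1 and α6β1 directly and steers their trafficking and adhesion strength. Cd9 and Cd81 associate with immunoglobulin superfamily partners and with integrins more loosely, and Cd82 is known as a metastasis suppressor. Itgb1 encodes the β1 chain shared by many integrins, and it pairs with the α3 chain of Itga3, the α6 chain of Itga6 and the αv chain of Itgav. The αvβ8 pair, from Itgav and Itgb8, activates latent TGF-β, and in the brain it is best known in astrocytes and neural progenitors. A microRNA lowers an mRNA mainly through matches of its seed, the bases numbered 2 to 8, in the 3′ UTR.

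The mature microRNAs are shown with the seed in capitals, since every site below is read from it. Both sequences are from RefSeq on GRCm38.p6.
miR-199a-3p: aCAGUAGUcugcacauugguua
miR-99b-3p: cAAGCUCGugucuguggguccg
An 8mer site pairs with the whole seed and ends in an A, so that it reads ACTACTGA for miR-199a-3p and CGAGCTTA for miR-99b-3p on the mRNA strand. A 7mer-m8 site lacks that last A, and a 7mer-A1 site lacks the first base of the 8mer. Sites of miR-140-5p and cel-miR-67 were not analysed here.

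Cd151 carried 4 miR-199a-3p 8mers in a 3′ UTR of 776 nt, the highest number among 20895 annotated 3′ UTRs. In that set, taking the longest UTR of each gene, 20384 genes held no such 8mer, 493 held 1, 14 held 2, 3 held 3 and 1 gene, Cd151, held 4. The 3 genes with 3 copies were Abcd2, Ppp1r7 and Zbtb20, whose UTRs ran to 3115, 8423 and 23858 nt. The 4 Cd151 sites began 35, 93, 103 and 613 nt after the stop codon, so that the middle pair started 10 nt apart. All 4 lay in exon 8, the last exon, and in each of the 3 Cd151 transcripts with an annotated 3′ UTR. The windows below give each 8mer in capitals, on the plus strand of mm10, because these repeats set Cd151 apart from the other members.
Cd151 chr7:141470716-141470743: gggcggccagccttgcACTACTGAccac
Cd151 chr7:141470774-141470801: actatgtcccagccccACTACTGAacac
Cd151 chr7:141470784-141470811: agccccactactgaacACTACTGActta
Cd151 chr7:141471294-141471321: gccctggccttttctcACTACTGAtagc
The printed windows of the middle pair overlap, while their 8mers do not.

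Itga3 held 2 miR-199a-3p 8mers in 1321 nt, both in its last exon (exon 26) and in 3 of 3 transcripts. Itgb8 held 2 miR-199a-3p 7mer-m8 sites and 1 miR-99b-3p 8mer in 5095 nt, all in exon 14 of its annotated transcript. These windows, on the minus strand of mm10 and written 5′ to 3′ along the mRNA, are shown because Itga3 and Itgb8 had the largest falls of the listed integrin genes in astrocytes.
Itga3 chr11:95045604-95045631: cagattcgggaccgatACTACTGAtgcc
Itga3 chr11:95045184-95045211: tactgtccagaataaaACTACTGAtgcg
Itgb8 chr12:119162920-119162947: agtgaactatgtgtcttACTACTGttgg
Itgb8 chr12:119162360-119162387: taaataagtgctaagttACTACTGccat
Itgb8 chr12:119160131-119160158: tctggcacttggtagaCGAGCTTAtact
Across the annotated UTRs, 2.45% held a miR-199a-3p 8mer and 0.163% a miR-99b-3p 8mer, while 7.74% and 1.76% held an 8mer or 7mer-m8 of each. Itgav held 1 miR-199a-3p 7mer-A1, Itgb1 held 1 miR-99b-3p 7mer-A1 and Itgb8 held a further miR-99b-3p 7mer-A1. Cd9, Cd81, Cd82 and Itga6 held no 8mer or 7mer of either microRNA in the letters searched. A match describes the sequence and does not show that the site is used.

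**Figure D1:**
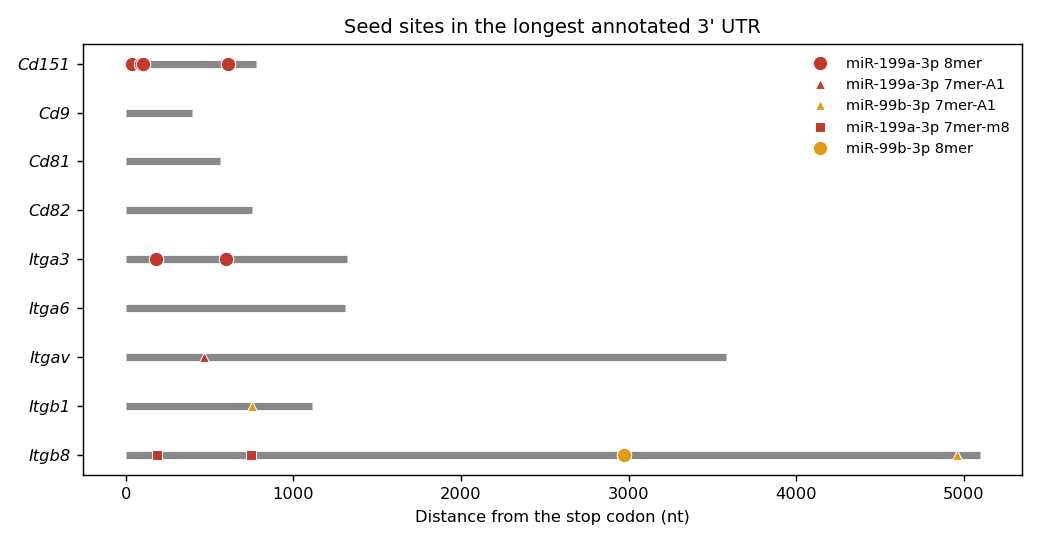
Longest annotated 3′ UTR of each gene (grey bars, in nt from the stop codon) with sites of miR-199a-3p (red) and miR-99b-3p (orange); circles are 8mers, squares 7mer-m8 and triangles 7mer-A1. Cd151 has 4 red circles in 776 nt, of which the pair at 93 and 103 nt merges at this scale.

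In the annotation on mm10, Cd151 (ENSMUSG00000025510) lies at chr7:141467392-141471473, Itga3 (ENSMUSG00000001507) at chr11:95044474-95076801 and Itgb8 (ENSMUSG00000025321) at chr12:119158022-119238802. Cd9 (ENSMUSG00000030342) lies at chr6:125460266-125494791, Cd81 (ENSMUSG00000037706) at chr7:143052739-143067934 and Cd82 (ENSMUSG00000027215) at chr2:93419111-93463140. Itga6 (ENSMUSG00000027111) lies at chr2:71745616-71858416, Itgav (ENSMUSG00000027087) at chr2:83724397-83806916 and Itgb1 (ENSMUSG00000025809) at chr8:128685654-128733200. Library totals ranged from 18.5 M to 27.9 M counts. In Neuro-2A the libraries numbered 1 stood apart from numbers 2 and 3 in both arms, with a chi-square per degree of freedom of 8.65 to 18.4 against them, where numbers 2 and 3 differed by 2.55 in the mix arm and 3.17 in the control arm. In BV-2, control replicate 2 stood apart from the other control libraries, at 13.9 and 21. Neuro-2A expressed 6 of 8 neuron markers above the TPM floor of 1 in every library, with Dcx at the floor, and BV-2 expressed 8 of 8 microglia markers. Astrocyte cultures expressed 8 of 8 astrocyte markers, and also 5 of 8 neuron, 8 of 8 microglia, 8 of 8 oligodendrocyte lineage and 6 of 6 ependymal markers.

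In astrocytes Cd151 stood at 49.8, 57.2 and 48.7 TPM in the mix arm, against 314, 306 and 302 TPM in the control arm. The arms are far apart there, and the mix level was 16.2% of the control level (log2 fold change −2.63 ± 0.05, SE, n = 3 per arm). In Neuro-2A the mix libraries held 27.1, 37.6 and 41.5 TPM of Cd151, against 147, 197 and 192 TPM in control libraries. Replicate 1 was the lowest in each arm, and the arms did not overlap (20% of control, log2 fold change −2.32 ± 0.17). With number 1 left out of both arms, the log2 fold change was −2.28. In BV-2, where Cd151 was scarce, it stood at 10.3, 8.93 and 10.6 TPM in the mix arm and at 28.3, 28 and 27 TPM in the control arm. That is 34.1% of the control level (log2 fold change −1.55 ± 0.08). Cd151 had the largest fall of 16160 genes tested in Neuro-2A, the second largest of 17770 in astrocytes (rank 2) and rank 9 of 14961 in BV-2.

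The other tetraspanins moved by much less, and not in one direction. Cd9, the most abundant of the 4 in BV-2 and Neuro-2A, stood at 790, 810 and 784 TPM in mix astrocytes, against 677, 685 and 677 TPM in control astrocytes. Every mix astrocyte library was above every control library (log2 fold change 0.16 ± 0.03). In BV-2 the order was the opposite, with 457, 472 and 474 TPM of Cd9 in the mix arm and 570, 500 and 562 TPM in the control arm (−0.29 ± 0.05). Past the threshold with all 6 libraries, Cd9 in BV-2 missed it when any of the 3 mix libraries was left out, and with limma. In Neuro-2A the arms overlapped, at 231, 204 and 230 TPM of Cd9 in mix libraries and 272, 228 and 253 TPM in control libraries. The Neuro-2A log2 fold change was −0.16 ± 0.08, and Cd9 did not pass the threshold there until replicate number was a block in the fit (−0.16, lower).

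Cd81, which with Cd9 organises receptor complexes in many cells, was nearly level in all 3 cell types. Its log2 fold changes were 0.03 ± 0.07 in Neuro-2A, −0.10 ± 0.03 in astrocytes and 0.11 ± 0.07 in BV-2. In astrocytes the mix libraries held 1013, 1012 and 1038 TPM of Cd81, against 1041, 1042 and 1057 TPM in the control libraries, so that the arms were separate by a narrow margin. Cd81 passed the threshold in astrocytes, and missed it without mix replicate 1 or control replicate 3, with limma, and in the fit of all 18 libraries. Cd82 stood at 43.7, 50.9 and 44.7 TPM in mix astrocytes and 39.1, 40 and 39.4 TPM in control astrocytes (0.17 ± 0.06). It passed the threshold there, and missed it without mix replicate 2 or any 1 of the 3 control libraries, with DESeq2, and in the fit of all 18 libraries. In BV-2 Cd82 missed the threshold (0.08 ± 0.07), though in deposited TPM every mix library (84.8 to 88.7 TPM) was above the control libraries (72.3 to 84 TPM). Of all genes tested in BV-2, 24% lay wholly above the control arm in deposited TPM and 8.78% wholly below it. In Neuro-2A Cd82 was low in both arms, at 6.9 to 10.3 TPM under the mix and 7.61 to 11.8 TPM under the control mimic (−0.10 ± 0.20).

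The make-up of the tetraspanin transcripts shifted accordingly. Cd151 made up 8.83% ± 1.61 of the summed TPM of the 4 tetraspanins in mix Neuro-2A and 31.2% ± 4.01 in control Neuro-2A (SD, n = 3 each). In astrocytes its share was 2.71% ± 0.222 in the mix arm and 14.8% ± 0.294 in the control arm. In BV-2 it was 1.48% ± 0.125 in the mix arm and 3.73% ± 0.244 in the control arm. The summed level of the 4 was 400 ± 19.5 TPM in mix and 573 ± 22.8 TPM in control Neuro-2A, and 1914 ± 16.4 TPM in mix and 2073 ± 2.3 TPM in control astrocytes. A share of a sum rises when another part falls, so the higher Cd9 and Cd81 shares in mix Neuro-2A (55.5% and 33.4%, against 43.9% and 23.2% in control) say nothing of their own levels.

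**Figure D2:**
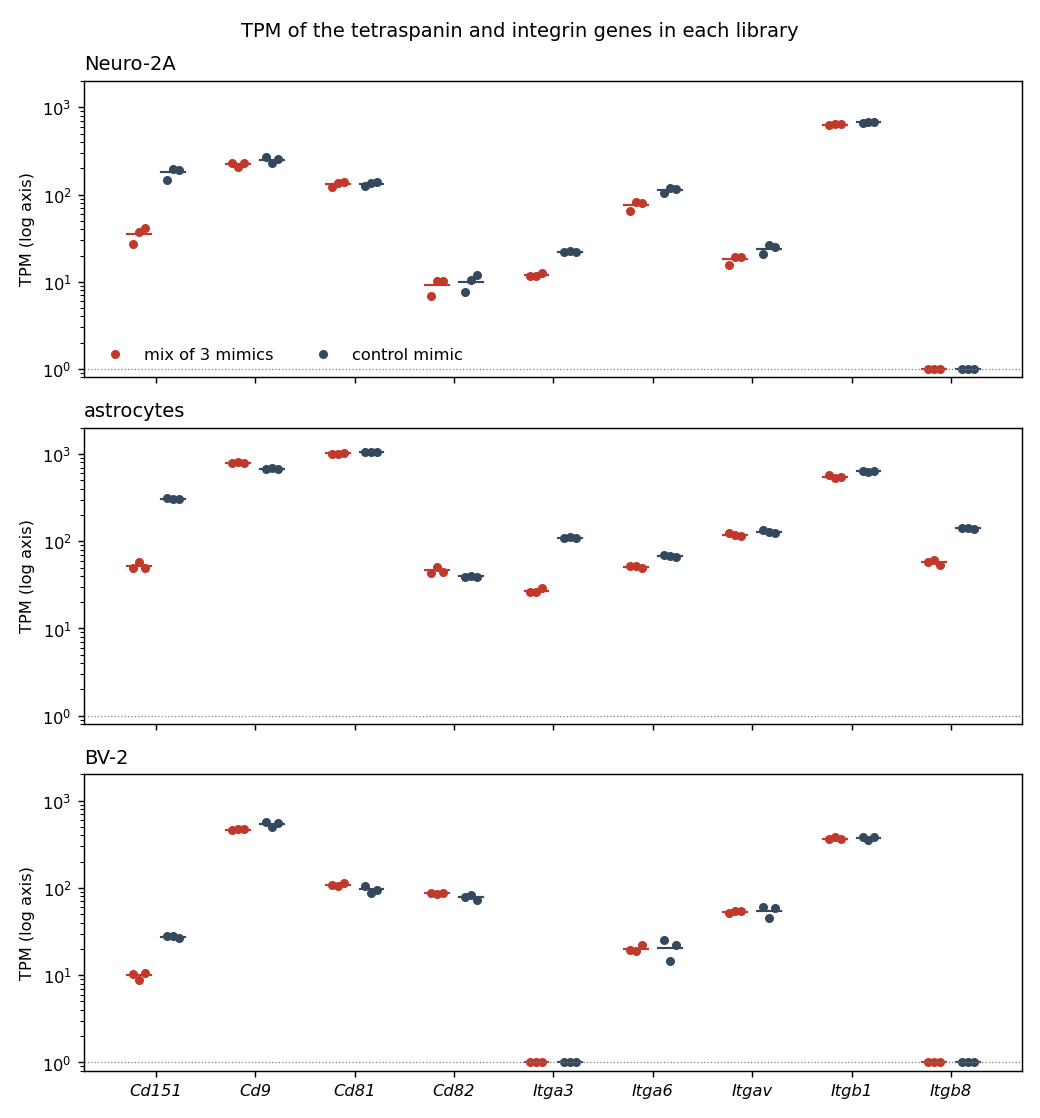
TPM per library (log axis) for each gene and cell type; red points are mix libraries, dark points control libraries, short lines the mean of 3, and the dotted line the TPM floor of 1. Cd151 mix points lie below control points in every panel, Itga3 does so in Neuro-2A and astrocytes, and Itga3 in BV-2 and Itgb8 in Neuro-2A and BV-2 sit at the floor.

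Among the laminin-binding integrin chains, Itga3 had the largest fall under the mix in Neuro-2A and astrocytes. In astrocytes it stood at 26, 26.2 and 29.2 TPM in the mix arm, against 110, 111 and 109 TPM in the control arm. The mix level was 23.6% of control (log2 fold change −2.08 ± 0.04), with no overlap. In Neuro-2A the mix libraries held 11.5, 11.7 and 12.5 TPM of Itga3 and the control libraries 22, 22.5 and 22.1 TPM (−0.88 ± 0.06). In BV-2 Itga3 was at the floor in all 6 libraries, with at most 5 counts in a library, and it was not tested.

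Itga6 was lower under the mix in the same pair of cell types, by a smaller factor. Its values were 65.2, 81.1 and 80.2 TPM in mix Neuro-2A and 104, 118 and 115 TPM in control Neuro-2A (−0.55 ± 0.09). In astrocytes it stood at 51.8, 51.7 and 49.7 TPM under the mix and 69.6, 66.9 and 65.2 TPM under the control mimic (−0.46 ± 0.03). Neither pair of arms overlapped. In BV-2 the mix libraries (19.5, 18.9 and 22.3 TPM) lay inside the spread of the control libraries (25.4, 14.6 and 22.2 TPM), for a log2 fold change of −0.10 ± 0.16. The lowest of these control values belongs to replicate 2, and without it Itga6 was at −0.28 and past the threshold. Of the summed TPM of the laminin-binding chains Itga3, Itga6 and Itga7, Itga3 made up 22.6% ± 1.25 in mix astrocytes and 51.8% ± 0.365 in control astrocytes (SD, n = 3). In Neuro-2A its share was 13.2% ± 1.17 in the mix arm and 16.1% ± 0.801 in the control arm.

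Itgb1, the shared β1 chain, was abundant in every cell type and close between the arms. In astrocytes it stood at 569, 528 and 550 TPM in the mix arm, against 646, 622 and 636 TPM in the control arm, which did not overlap (log2 fold change −0.27 ± 0.03). In Neuro-2A the mix libraries held 622, 639 and 638 TPM of Itgb1 and the control libraries 661, 677 and 680 TPM (−0.07 ± 0.04). In BV-2 the arms overlapped, with a mean of 369 ± 11.4 TPM under the mix and 376 ± 15.8 TPM under the control mimic (SD, n = 3; −0.09 ± 0.05).

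Of the αvβ8 pair, Itgb8 was above the TPM floor in astrocytes only. There it stood at 58, 60.9 and 53.6 TPM in the mix arm, against 143, 143 and 139 TPM in the control arm, and the mix level was 38.9% of control (log2 fold change −1.36 ± 0.04). In Neuro-2A and BV-2 it held fewer than 3 counts in each of the 12 libraries, at the TPM floor, and was not tested. Itgav was closer between the arms. Its astrocyte values of 124, 117 and 114 TPM under the mix overlapped the 133, 126 and 123 TPM under the control mimic (−0.17 ± 0.04), and it passed the threshold there except with limma and in the fit of all 18 libraries. In Neuro-2A, Itgav stood at 15.7, 19.3 and 19.3 TPM under the mix and 20.7, 26.5 and 24.9 TPM under the control mimic, without overlap (−0.39 ± 0.11). It missed the threshold in Neuro-2A, and passed it in 6 of 14 other settings: the replicate block (−0.39), DESeq2, no filter, the fit of all 18 libraries, numbers 2 and 3 alone, and without control replicate 1. In BV-2 it stood at 52.3 to 54.5 TPM under the mix and 45.7 to 61 TPM under the control mimic (−0.10 ± 0.08), and without control replicate 2 at −0.20 and past the threshold.

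**Figure D3:**
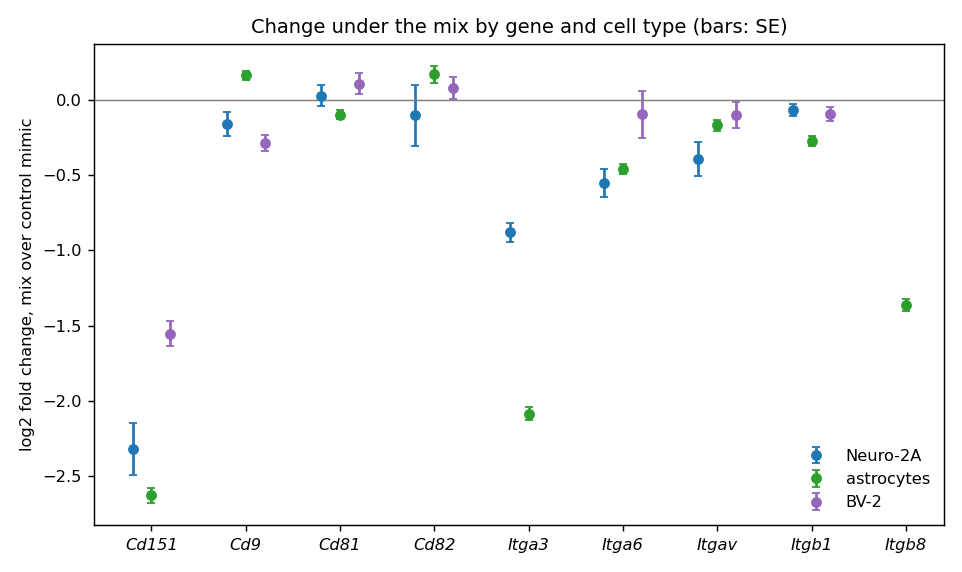
Log2 fold change of the mix over the control mimic for each gene (points by cell type, bars the SE from edgeR; 3 libraries per arm). Cd151 lies between −2.63 and −1.55 in the 3 cell types, and Cd9, Cd81 and Cd82 lie within 0.3 of zero.

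In astrocytes 7 of 9 members were past the threshold of an adjusted p of 0.05 as lower (edgeR's quasi-likelihood test over all genes), where 20.6% of all genes tested were lower. The other 2, Cd9 and Cd82, were past it as higher, where 19.7% of all genes were. In either direction 40.2% of all genes passed in astrocytes. In Neuro-2A 3 of 8 tested members were lower (Cd151, Itga3 and Itga6), where 7.88% of all genes were lower and 5.01% higher. Of the rest, 5 missed the threshold. With replicate number as a block, Cd9 and Itgav joined them, for 5 of 8, where 19.5% of all genes were lower in that fit. In BV-2 2 of 7 tested members were lower (Cd151 and Cd9), where 5.41% of all genes were lower and 4.61% higher. Without BV-2 control replicate 2, 4 were lower and Cd82 was higher, where 10.6% of all genes were lower and 9.05% higher in that fit. The mix libraries lay wholly below the control libraries for 5 members in Neuro-2A, 6 in astrocytes and 2 in BV-2, where 18.2%, 17.6% and 8.78% of all genes did in deposited TPM. The members were chosen on these contrasts, so nothing is read from their counts or from their single calls. The median log2 fold change of the tested members was −0.28 in Neuro-2A, −0.27 in astrocytes and −0.10 in BV-2, beside 0.01, 0.01 and 0.00 over all genes tested.

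In the astrocyte cultures the summed TPM of the 8 astrocyte markers ran from 7237 to 7846 in the mix arm and from 9023 to 9509 in the control arm. The sum of 7 fibroblast and pericyte markers ran from 1227 to 1476 in the mix arm and from 1673 to 1869 in the control arm, with Lum at the floor in both arms and Dcn at the floor in the control arm. The 8 microglia markers summed to 386 to 521 TPM in the mix arm and 376 to 434 TPM in the control arm, with none at the floor. The 8 neuron markers summed to 294 to 298 TPM in the mix arm and 279 to 288 TPM in the control arm, with Rbfox3 and Snap25 at the floor in both. In bulk RNA, fewer cells of a type and less RNA per cell cannot be told apart. In Neuro-2A the 8 neuron markers summed to 862 to 962 TPM in the mix arm and 1060 to 1313 TPM in the control arm, and 7 of 8 astrocyte markers were at the floor. In BV-2 the 8 microglia markers summed to 3361 to 3461 TPM in the mix arm and 3147 to 3496 TPM in the control arm, with 8 of 8 neuron and 8 of 8 astrocyte markers at the floor. The part of these markers in the member values was not tested.

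Genes outside the 9 members were set in classes by their miR-199a-3p sites, to show where Cd151 and Itga3 lie. In Neuro-2A the 11 tested genes with 2 or more 8mers had a median log2 fold change of −0.62 and a lowest value of −1.02, above Cd151 at −2.32 and below Itga3 at −0.88. In astrocytes 12 such genes had a median of −0.32 and a lowest value of −1.22, above both Cd151 (−2.63) and Itga3 (−2.08). In BV-2 11 such genes had a median of −0.13 and a lowest value of −0.82, above Cd151 at −1.55. Genes with no 8mer or 7mer-m8 reached −1.70 in Neuro-2A, −2.53 in astrocytes and −5.79 in BV-2, below Cd151 in BV-2 and below Itga3 in the other 2. Genes with 7mer-m8 sites alone reached −2.58 in BV-2. Of the genes with 2 or more 8mers, 72.7%, 83.3% and 36.4% were past the threshold as lower in Neuro-2A, astrocytes and BV-2, beside 7.75%, 21.2% and 5.78% of the genes with no 8mer or 7mer-m8. UTR length was not matched between the classes, and the other mimics of the mix were given at the same time.

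**Figure D4:**
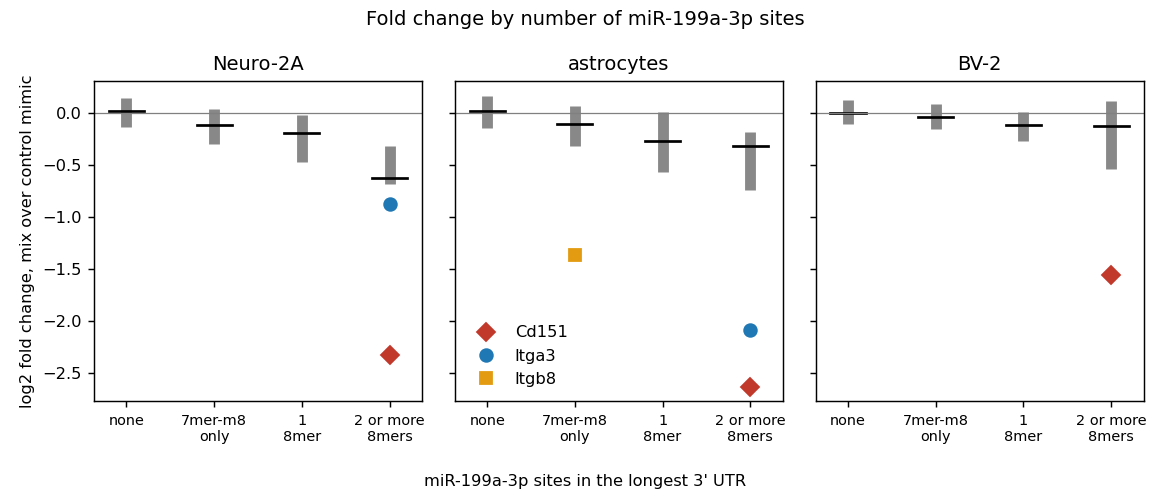
Log2 fold change of genes grouped by miR-199a-3p sites in the longest 3′ UTR (members left out; grey bars the quartile range, black lines the median), with Cd151, Itga3 and Itgb8 drawn as single points in their own class. Cd151 lies below the quartile range of the genes with 2 or more 8mers in every panel, and Itgb8, with 7mer-m8 sites, is drawn for astrocytes only.

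Differences of the change between cell types are given with their SE as a description, and Itgb8 could be fitted in astrocytes only. In a fit of all 18 libraries, the Cd151 log2 fold change in astrocytes minus that in BV-2 was −1.06 ± 0.19 (SE), and that in Neuro-2A minus that in BV-2 was −0.76 ± 0.19. For astrocytes minus Neuro-2A the Cd151 difference was −0.30 ± 0.17. For Itga3 the difference of astrocytes minus Neuro-2A was −1.20 ± 0.09, and for Cd9 that of astrocytes minus BV-2 was 0.46 ± 0.08 and that of astrocytes minus Neuro-2A 0.33 ± 0.08. Cd81 differed by −0.19 ± 0.09 in astrocytes minus BV-2, and Itgav by −0.28 ± 0.14 in Neuro-2A minus BV-2. Cd82 differed by 0.27 ± 0.19 in astrocytes minus Neuro-2A, by 0.11 ± 0.16 in astrocytes minus BV-2 and by −0.17 ± 0.19 in Neuro-2A minus BV-2. Itga6 differed by −0.44 ± 0.17 in Neuro-2A minus BV-2, by −0.35 ± 0.18 in astrocytes minus BV-2 and by 0.09 ± 0.17 in astrocytes minus Neuro-2A. Itgb1 differed by −0.20 ± 0.06 in astrocytes minus Neuro-2A and by −0.16 ± 0.06 in astrocytes minus BV-2. These differences come from the contrasts that chose the members and carry no p-value.

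Between the cell types, under the control mimic alone, the members stood at different levels. The members were not chosen on this comparison, but the same control libraries are an arm of each contrast that was used. Counts are given over members tested in both cell types, which leaves out Itgb8 and, against BV-2, Itga3. Astrocytes held more of 6 of 8 members than Neuro-2A and less of Itga6, where 48.7% of all genes were called higher, 38.6% lower and 87.3% in either direction. They held more of 6 of 7 members than BV-2 and less of Cd82, where 49.1% were higher, 37.8% lower and 86.9% in either direction. Neuro-2A held more of 4 of 7 members than BV-2 and less of 3, where 42.7% were higher, 36.3% lower and 79% in either direction. Cd151 was highest in astrocytes (307 ± 5.78 TPM), then in Neuro-2A (179 ± 27.5 TPM), then in BV-2 (27.8 ± 0.728 TPM; SD, n = 3 each). Both steps passed, with astrocytes 1.85-fold over Neuro-2A (edgeR adjusted p = 5.84e-07) and Neuro-2A 5.74-fold over BV-2 (edgeR adjusted p = 4.76e-13). Cd81 was 8.51-fold higher in astrocytes (1046 ± 9.1 TPM) than in Neuro-2A (133 ± 8.06 TPM; edgeR adjusted p = 6.71e-19), and Neuro-2A was 1.23-fold over BV-2 (96.6 ± 9.51 TPM; edgeR adjusted p = 0.000321).

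Cd9 was nearer to level between the glia, at 680 ± 4.64 TPM in astrocytes and 544 ± 38.5 TPM in BV-2 (1.2-fold, edgeR adjusted p = 0.000197), with 251 ± 21.9 TPM in Neuro-2A. Cd82 followed another order. It was highest in BV-2 (78.3 ± 5.86 TPM), 2.06-fold over astrocytes (39.5 ± 0.474 TPM; edgeR adjusted p = 5.7e-08), and lowest in Neuro-2A (9.93 ± 2.14 TPM).

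Of the integrin chains, Itga6 was highest in Neuro-2A (112 ± 7.49 TPM), 1.54-fold over astrocytes (67.2 ± 2.19 TPM; edgeR adjusted p = 7.71e-05) and 4.84-fold over BV-2 (20.7 ± 5.53 TPM; edgeR adjusted p = 2.27e-12). Itga3 stood at 110 ± 0.728 TPM in astrocytes and 22.2 ± 0.279 TPM in Neuro-2A (5.35-fold, edgeR adjusted p = 1.03e-17), with 2, 1 and 0 counts in the BV-2 control libraries. Itgav was highest in astrocytes (128 ± 4.92 TPM), 2.23-fold over BV-2 (55.2 ± 8.3 TPM; edgeR adjusted p = 6.13e-10), and BV-2 was 2.56-fold over Neuro-2A (24.1 ± 3.01 TPM; edgeR adjusted p = 1.05e-10). Itgb1 averaged 634 ± 12.5 TPM in astrocytes and 673 ± 9.82 TPM in Neuro-2A, without overlap. The edgeR fit, which scales by TMM, did not call it and had the opposite sign (log2 difference 0.03 ± 0.04, edgeR adjusted p = 0.553), while limma on log2(TPM + 1) called it lower in astrocytes (−0.08 ± 0.03, limma adjusted p = 0.0375). Itgb1 was 1.62-fold higher in astrocytes than in BV-2 (376 ± 15.8 TPM; edgeR adjusted p = 4.67e-12). Itgb8 stood at 142 ± 2.16 TPM in astrocytes. Within astrocytes, where TPM allow genes to be compared per length, the order of levels ran from Cd81 through Cd9, Itgb1, Cd151, Itgb8, Itgav, Itga3 and Itga6 to Cd82.

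The lists of further genes used from here on were, like the members, chosen with earlier results of these data known. Their adjusted p-values are therefore not independent tests of these genes. Other tetraspanins passed the threshold in each cell type in small numbers, to be read against the 7.88%, 20.6% and 5.41% of all genes lower and the 5.01%, 19.7% and 4.61% higher in Neuro-2A, astrocytes and BV-2. In Neuro-2A 3 of 16 tested were lower and 1 higher (3 and 3 with the replicate block, where 19.5% of all genes were lower and 18.2% higher), in astrocytes 4 of 19 lower and 3 higher, and in BV-2 1 of 13 was higher, with medians of 0.04, 0.04 and 0.10 on the log2 scale. Tspan7, a neuronal tetraspanin linked to synapse development, rose to 173 ± 1.84 TPM in mix astrocytes, against 112 ± 1.83 TPM in control astrocytes (log2 fold change 0.56 ± 0.03, edgeR adjusted p = 3.32e-08). In Neuro-2A Tspan7 rose by 0.45 ± 0.09 (edgeR adjusted p = 0.0166), a call that was lost without mix replicate 3 or control replicate 2, and with limma. Tspan2, known from oligodendrocytes and neurons, fell to 35 ± 2.89 TPM in mix Neuro-2A, against 62.5 ± 2.44 TPM in control Neuro-2A (−0.82 ± 0.07, edgeR adjusted p = 0.00063). Tspan18 fell in Neuro-2A as well (−0.59 ± 0.07, edgeR adjusted p = 0.00266), and Tspan5 and Tspan9 rose in astrocytes by 0.34 ± 0.04 and 0.32 ± 0.04 (edgeR adjusted p = 1.73e-05 and 1.39e-05). In BV-2 Tspan3 rose by 0.20 ± 0.05 (edgeR adjusted p = 0.0459). That call was lost without any 1 of the 3 mix libraries, or control replicate 1 or 3, and with DESeq2, no filter and the replicate block.

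Among the other integrin subunits, 0 of 13 tested passed the threshold in Neuro-2A by edgeR, 4 of 17 were lower and 2 higher in astrocytes, and 1 of 15 was lower and 2 were higher in BV-2. Of all genes, 20.6% were lower and 19.7% higher in astrocytes, and 5.41% lower and 4.61% higher in BV-2. In Neuro-2A 7.88% of all genes were lower and 5.01% higher, and with the replicate block 19.5% were lower and 18.2% higher. In Neuro-2A 2 were lower and 1 higher at an unadjusted p under 0.05, DESeq2 called 1 lower and limma 0, and edgeR with the replicate block called 6 lower and 1 higher. In astrocytes Itga1, the collagen-binding α1 chain, fell to 19.1 ± 0.412 TPM in the mix arm, against 27.6 ± 1.32 TPM in the control arm (−0.59 ± 0.04, edgeR adjusted p = 1.75e-07). Itga7, a laminin-binding chain like Itga3 and Itga6, rose there by 0.19 ± 0.03 (edgeR adjusted p = 0.00061), and Itga2b, known as the platelet αIIb chain, fell by 0.41 on the log2 scale (SE 0.09, edgeR adjusted p = 0.00323), a call that limma did not make. In BV-2 the leukocyte chains Itgb7 and Itgal rose, by 0.71 ± 0.09 and 0.52 ± 0.08 (edgeR adjusted p = 0.00177 and 0.00619). Itga5, the fibronectin receptor chain, stood at 173 ± 3.9 TPM in mix BV-2, against 202 ± 14.8 TPM in control BV-2 (−0.29 ± 0.07, edgeR adjusted p = 0.032). It missed the threshold without any 1 of the 3 mix libraries, and with limma.

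**Figure D5:**
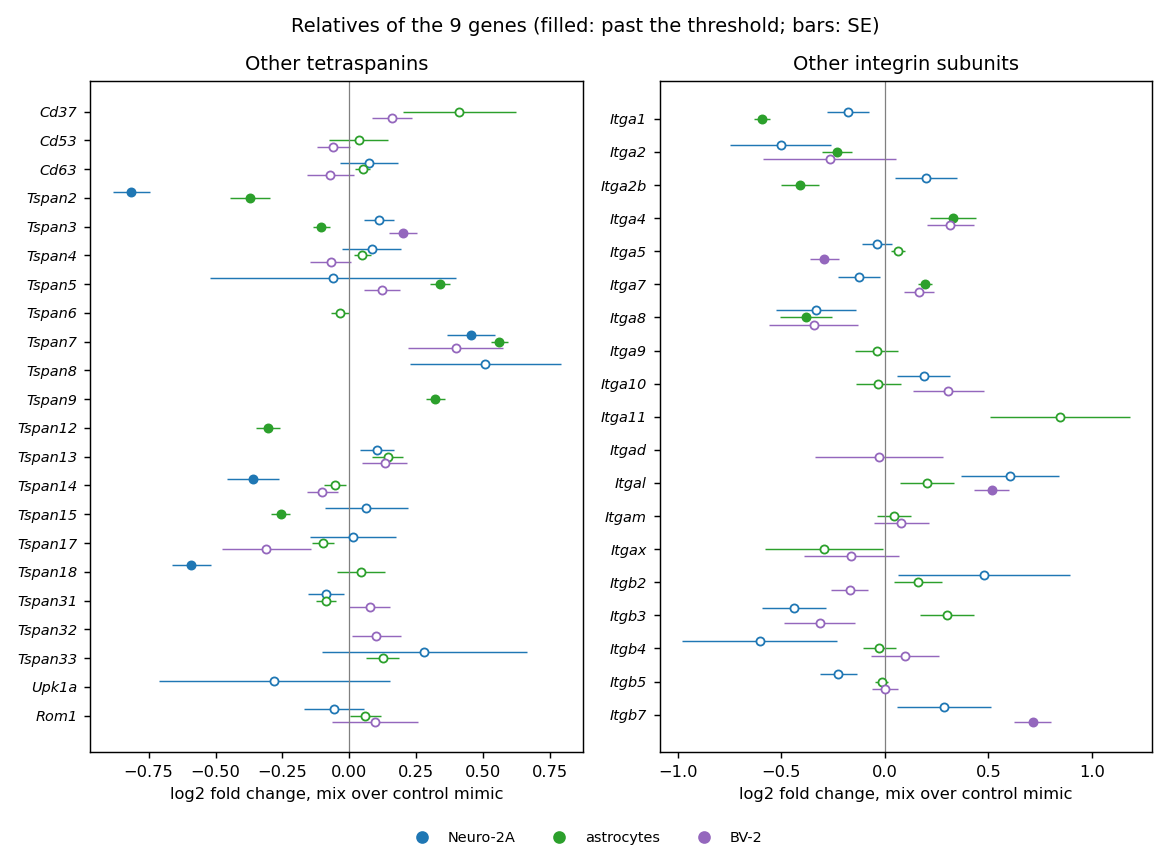
Log2 fold change of the mix over the control mimic for the tested tetraspanins (left) and integrin subunits (right) that are not members, by cell type; filled points passed an edgeR adjusted p of 0.05 and bars are SE. No filled point lies below −0.82, the value of Tspan2 in Neuro-2A.

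Partners, ligands and adaptors of these complexes together had 9 of 39 tested genes lower and 1 higher in Neuro-2A, 21 of 49 lower and 6 higher in astrocytes, and 12 of 34 lower and 2 higher in BV-2. These counts stand beside the same shares of all genes, which with the replicate block in Neuro-2A were 19.5% lower and 18.2% higher. The lists differed among themselves. Of 13 tetraspanin partner genes, 2 of 9 tested were lower and 1 higher in Neuro-2A (4 and 2 with the replicate block), 6 of 13 lower and 4 higher in astrocytes, and 4 of 11 lower and 2 higher in BV-2. The sheddase Adam10, which tetraspanins of another subgroup carry to the membrane, fell in all 3 cell types, by 0.83, 0.74 and 0.40 on the log2 scale in Neuro-2A, astrocytes and BV-2 (edgeR adjusted p = 0.000564, 3.32e-08 and 0.00384), though limma did not call it in BV-2. The hyaluronan receptor Cd44 fell to 135 ± 4.21 TPM in mix astrocytes, against 228 ± 4.46 TPM in control astrocytes (−0.82 ± 0.03, edgeR adjusted p = 2.71e-09). In BV-2 Cd44 fell to 129 ± 3.02 TPM in the mix arm, against 197 ± 9.66 TPM in the control arm (−0.68 ± 0.05, edgeR adjusted p = 0.000114). The growth factor receptor Met fell in astrocytes (−0.70 ± 0.04, edgeR adjusted p = 1.06e-07) and the scavenger receptor Cd36 in BV-2 (−0.71 ± 0.06, edgeR adjusted p = 0.000301). In Neuro-2A the immunoglobulin superfamily gene Igsf3 fell (−0.36 ± 0.05, edgeR adjusted p = 0.00452) and the EGF receptor ligand gene Hbegf rose (0.71 ± 0.16, edgeR adjusted p = 0.0244). The Neuro-2A call for Hbegf was lost without mix replicate 2 or 3, or control replicate 2, and with limma. Hbegf also passed as higher in astrocytes (0.44 ± 0.06, edgeR adjusted p = 7.45e-05) and in BV-2 (0.51 ± 0.10, edgeR adjusted p = 0.0134). Those calls were not followed through the other settings.

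Of the ligands, Lamc1, the γ1 laminin chain found in most laminins, fell in Neuro-2A and astrocytes. In BV-2 it did not pass, at 91.1 ± 1.96 TPM under the mix and 96.7 ± 10.6 TPM under the control mimic (−0.15 ± 0.07). It stood at 89.6 ± 4.11 TPM in mix Neuro-2A, against 167 ± 11.6 TPM in control Neuro-2A (−0.88 ± 0.06, edgeR adjusted p = 0.000446). In astrocytes it stood at 164 ± 1.96 TPM under the mix, against 255 ± 8.34 TPM under the control mimic (−0.70 ± 0.03, edgeR adjusted p = 8.01e-09). Ltbp1, which tethers latent TGF-β to the matrix, rose to 51.4 ± 1.91 TPM in mix astrocytes, against 23.5 ± 0.449 TPM in control astrocytes (1.06 ± 0.04, edgeR adjusted p = 9.01e-10). In BV-2 Nrros, which holds latent TGF-β on microglia for αvβ8 to activate, fell by 0.27 (SE 0.05, edgeR adjusted p = 0.00923). The Nrros call was lost without any 1 of the 3 mix libraries, and in the fit of all 18 libraries. In all, 2 of 13 tested ligand genes were lower in Neuro-2A, 4 of 19 were lower and 2 higher in astrocytes, and 2 of 8 were lower in BV-2. With the replicate block in Neuro-2A, 4 were lower and 2 higher, where 19.5% of all genes were lower and 18.2% higher.

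The cytoplasmic adaptors that link β chains to actin had 5 of 17 tested genes lower in Neuro-2A, 11 of 17 in astrocytes and 6 of 15 in BV-2, beside the shares of lower genes given above (7.88%, 20.6% and 5.41%). Their median log2 fold changes were −0.08, −0.21 and −0.17. Parvb, β-parvin, fell in every cell type, by 0.97, 0.64 and 0.40 on the log2 scale in Neuro-2A, astrocytes and BV-2 (edgeR adjusted p = 0.00176, 4.21e-06 and 0.00134). Parvg, γ-parvin of blood cells, fell in BV-2 to 123 ± 3.84 TPM in the mix arm, against 191 ± 17.2 TPM in the control arm (−0.70 ± 0.06, edgeR adjusted p = 0.000282). Lims1 and Vcl, which encode PINCH1 and vinculin, fell in Neuro-2A by 0.62 and 0.43 (edgeR adjusted p = 0.00283 and 0.00339). Pxn, paxillin, fell in astrocytes by 0.36 (edgeR adjusted p = 7.68e-06), and Itgb1bp1, which binds the β1 tail, fell by 0.57 in astrocytes and 0.39 in BV-2 (edgeR adjusted p = 3.21e-06 and 0.02). The BV-2 call for Itgb1bp1 was lost without any 1 of the 3 mix libraries, and with limma.

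Over the 18 libraries, the 5 genes whose level followed Cd151 most closely included Ccnyl1 (r = 0.983), Tmx3 (0.977), Pak4 (0.968) and Ostm1 (0.960), by Pearson correlation of log2 CPM among 11864 protein-coding genes. The libraries share cell type and arm, so these values describe a common ordering of 6 groups and carry no p-value. Ostm1, a lysosomal gene, had log2 fold changes of −1.03 ± 0.08, −1.51 ± 0.05 and −1.12 ± 0.08 in Neuro-2A, astrocytes and BV-2. Pak4, a kinase gene, had −0.84 ± 0.07, −0.83 ± 0.06 and −0.34 ± 0.07. Among the members, Cd151 correlated with Itgb1 at 0.822, with Itga3 at 0.800 and with Itga6 at 0.760, and with Cd9 at 0.035. The other members stood at 0.560 (Itgb8), 0.5555 (Cd81), 0.200 (Itgav) and −0.397 (Cd82). With the mean of each cell type taken away, Itgb1, Itga3, Itga6 and Cd9 stood at 0.848, 0.628, 0.786 and 0.191. Itgb8, Itgav, Cd81 and Cd82 then stood at 0.771, 0.714, 0.078 and −0.029. The difference between the arms remains in these values, and the members were chosen on it.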

How the data were processed

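RNA was sequenced from 18 libraries in 6 groups of 3, each a cell type and arm. Per the labels' protocols, the kit was directional with poly(A) selection. The submitters' processing notes list Trimmomatic 0.39, STAR 2.7.10b and the mm10 build, but not what each was used for. No counting tool, strand setting or annotation is named in those sources. The authors deposited a table that its file headers call raw read counts, and the values are expected counts because 35.7% to 42.4% of genes in a library were not whole. They also deposited TPM, whose values are log2 TPM with every TPM of 1 or less set to 0, and TPM were computed back from them as 2 to that power.

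Counts were rounded, and each cell type was fitted on its own in edgeR 4.0.16 (R 4.3.3) (filterByExpr with a minimum count of 10, TMM, glmQLFit and glmQLFTest, two-sided, Benjamini-Hochberg over all genes tested, threshold 0.05), after a test on simulated counts. Levels between cell types, and differences of the mix effect, came from 1 fit of 18 libraries. DESeq2 1.42.0, limma 3.58.1 on log2(TPM + 1) and log2(TPM + 0.1), RLE scaling, no filter, a replicate block and each library left out were alternatives. In Neuro-2A, libraries of the same number deviated together (r = 0.419, 0.254 and 0.145 between arms), and the sample descriptions share numbers between arms. The Neuro-2A values and calls are still those of an unpaired fit, except where the replicate block is named. In astrocytes (0.059, 0.025 and 0.077) and BV-2 (0.015, 0.051 and −0.002) libraries of the same number deviated together little.

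UTRs were the longest annotated ones of at least 20 nt after the stop codon in GENCODE M21 for mm10, which held 99.8% of the table's identifiers. The member coordinates were identical there. Genes overlapping a member reached at most 1.96% of its highest count. The members and lists were chosen with earlier results of these data known. The text names all members, up to 3 genes per list and cell type with the smallest adjusted p (arms not overlapping, and 5 TPM or more on average in at least 1 arm), and the 5 genes most correlated with Cd151, except 2 genes under this rule that are not reported here.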

Additional observations from a re-analysis of the deposited data

Results flagged for a closer look

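Cd9 moved in opposite directions in the glia: every mix library was above every control library in astrocytes (log2 fold change 0.1631) and below it in BV-2 (−0.2857). The BV-2 value was past the threshold in the edgeR fit and missed it without any 1 of the 3 mix libraries, and with limma. Itga5 was separated in the same way, at 0.06403 in astrocytes, where it did not pass the threshold, and −0.2937 in BV-2. For Cd9 the fit of all 18 libraries put the difference, astrocytes minus BV-2, at 0.46 ± 0.08 (SE), with no p-value since Cd9 was chosen on these contrasts. For Itga5 the difference was not tested. Deposited TPM were compared without TMM scaling, and in astrocytes 34.8% of all genes lay wholly above the control arm and 17.6% wholly below it.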

How the results depend on the processing

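Cd151 was called lower in every setting, from −2.44 to −2.16 in Neuro-2A when 1 library was left out; in BV-2 its log2 fold change was −1.398 with limma on log2(TPM + 1), against −1.55. In Neuro-2A, where 2083 genes were called, the replicate block gave 6101 genes, 5 members lower, and 23 listed genes lower and 8 higher, against 3, 12 and 2. One fit of all 18 libraries gave 3271 genes. Numbers 2 and 3 alone, chosen after the data were seen, gave 3663 genes, with 19 listed genes lower and 4 higher. Limma, with either pseudocount, gave 0 listed genes higher. With 1 library left out, 870 to 2268 genes were called and 0 to 2 listed genes were higher. In astrocytes, 1 fit of all libraries gave 4535 genes against 7149, with 18 listed genes lower against 29, and, like DESeq2, 1 member higher against 2; limma gave 19 listed genes higher against 11, and 1 to 2 members were higher with 1 library left out. In BV-2, limma gave 1 member and 5 listed genes lower, against 2 and 13. With 1 library left out, BV-2 gave 434 to 2985 genes against 1498, 1 to 4 members lower, 0 to 1 higher, and 5 to 16 listed genes lower and 2 to 11 higher; the highest values came without control replicate 2. Between cell types, limma called 2 members lower in astrocytes than in Neuro-2A, against 1, the added one being Itgb1. Its log2 difference there, 0.03 and not called, was −0.02261 with no filter, −0.0837 with limma, −0.04416 in the control libraries alone and −0.0442 with the replicate block. The causes were not tested. In astrocytes and BV-2, where libraries of the same number deviated together little, the replicate block kept the counts of members called. Itga3 in BV-2, and Itgb8 in both lines, were too sparse to test.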
